A study of Mus musculus with 12 samples.

Results

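The 10 genes described here encode proteins of the neuronal cytoskeleton and were taken by symbol from a table of 23893 genes, as a check of the neuronal content and health of the cultures. They are the microtubule-associated protein genes Mapt, Map2, Map1a and Map1b, the tubulin gene Tubb3, the neurofilament genes Nefl, Nefm and Nefh, and Dcx and Stmn2, whose products bind tubulin in growing neurites. All 10 were present in the table and counted in every library. Transcripts were counted by RNA-seq in 12 libraries of primary mouse cortical neurons, 3 in each of 4 groups, from embryos of days E13.5 to E15.5, of strain C57BL6 by the strain label and C57BL6/J by the growth protocol. WT-Veh and WT-Topot neurons were infected at day 3 in vitro with a tdTomato lentivirus, and Top1 cKO-Veh and Top1 cKO-Topot neurons with a tdTomato-P2A-CRE lentivirus. At day 15 the Veh groups received vehicle (0.003% DMSO) and the Topot groups 300 nM topotecan in the same vehicle, and all were harvested 3 days later. The study's methods give all of these cultures as Top1 fl/fl, so the WT groups carry the floxed allele too, whereas the labels call their genotype wild-type. Both viruses use the CaMKIIα promoter, which limits expression to neurons, and 85 to 90% of the cells were transduced, so cells that the virus did not reach kept Top1. The question was whether the transcripts that build the neuronal cytoskeleton differed between the groups, in contrasts of topotecan, of Top1 deletion and of both.

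Microtubules are polymers of alpha- and beta-tubulin that run along axons and dendrites as structural support and as tracks for transport. Map2 protein is concentrated in the cell body and dendrites, tau (Mapt) in axons, Map1b in growing processes and Map1a in mature ones. Tubb3 is the beta-tubulin isotype used as a neuronal marker. Neurofilaments fill axons and are built from a light, a medium and a heavy chain together with alpha-internexin, and light chain that leaks into body fluids is used as a measure of axonal damage. Doublecortin (Dcx) stabilises microtubules in migrating and immature neurons, and stathmin-2 (Stmn2) regulates microtubule turnover in growth cones and is lost after axon injury. TOP1 relieves the supercoiling that transcription creates, topotecan traps it on DNA, and long genes are known to be more sensitive to its inhibition than short ones.

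The libraries held 1730164 to 4583777 counts. Top1, the deleted gene, stood at 117 to 163 CPM (counts scaled to a common library total, on a library size scaled by edgeR's TMM method) in the 6 WT libraries and at 27.1 to 44.0 CPM in the 6 Top1 cKO libraries, in the direction of the labels. Neuronal markers outside the cytoskeleton were abundant in all 12 libraries, with a summed level of 6848 to 10755 CPM over 11 genes, led by Syp, Snap25, Camk2a and Thy1. Their sum was 6848 to 8456 CPM in WT-Veh and 7951 to 8519 CPM in WT-Topot. It was 8672 to 10755 CPM in Top1 cKO-Veh and 8847 to 10250 CPM in Top1 cKO-Topot. Every Top1 cKO library was therefore above every WT library in this sum. The 9 astrocyte markers, led by Slc1a2, Aldoc, Gfap and Slc1a3, were all detected in every group, and their sum was 2404 to 4944 CPM in WT-Veh, against 1140 to 1934 CPM in WT-Topot, 2718 to 6254 CPM in Top1 cKO-Veh and 1719 to 3189 CPM in Top1 cKO-Topot. The summed astrocyte level of every WT-Topot library was therefore below that of every WT-Veh and Top1 cKO-Veh library. Microglia, vascular and oligodendrocyte marker lists summed to at most 26.0, 115 and 298 CPM in any library, and Mag, a myelin gene, had no count in any group, nor had the endothelial gene Cldn5 in WT-Veh, WT-Topot and Top1 cKO-Veh. In such bulk samples fewer cells of a type and less RNA per cell cannot be told apart. The part of the glial and neuronal marker differences in the values that follow was not tested. The study's figure legends count its RNA-seq replicates as cultures, and neither the legends nor the labels say what cultures of the same replicate number share.

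Each comparison was fitted with edgeR's quasi-likelihood test over all 23893 genes, with Benjamini-Hochberg adjusted p-values, and a gene was called at an adjusted p under 0.01. None of the 10 genes was called in any of the 6 comparisons. In WT-Topot against WT-Veh this was 0 of 10, where 2.72% of all genes were called, and the smallest adjusted p of a member was 0.193. In Top1 cKO-Veh against WT-Veh it was 0 of 10, where 0.172% of all genes were called, with a smallest adjusted p of 0.204. In Top1 cKO-Topot against WT-Veh it was 0 of 10 beside 1.68%, in Top1 cKO-Topot against Top1 cKO-Veh 0 of 10 beside 0.00837%, in WT-Topot against Top1 cKO-Veh 0 of 10 beside 1.53%, and in the interaction, which is the topotecan effect in Top1 cKO minus that in WT, 0 of 10 beside 0.435%. With so few genes called, 0 of 10 does not set the members apart. At an unadjusted p under 0.05, Map2 and Nefl were lower and Tubb3 higher in WT-Topot than in WT-Veh, beside 7.18% and 5.88% of all genes in those directions. At the same unadjusted threshold, Map1b alone was apart in Top1 cKO-Veh against WT-Veh, on the higher side (4.82% of all genes lower and 3.9% higher). Nefl lower and Map1b higher passed it in Top1 cKO-Topot against WT-Veh (7.22% and 6.25%), Mapt and Tubb3 lower in Top1 cKO-Topot against Top1 cKO-Veh (backgrounds of 2.62% and 1.69%), Mapt, Map1b and Nefh lower in WT-Topot against Top1 cKO-Veh (6.71% and 5.4%), and Tubb3 lower in the interaction (3.65% and 4.57%). DESeq2's Wald test also called none of the 10, nor did edgeR's exact test in the 5 comparisons of 2 groups, the design it was run on.

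The intervals limit how large a difference could have gone uncalled. In WT-Topot against WT-Veh, the 95% intervals of all 10 log2 fold changes lay between -0.89 and 0.82, so that none reached a doubling or a halving. In Top1 cKO-Veh against WT-Veh they lay between -0.75 and 0.87, in Top1 cKO-Topot against WT-Veh between -0.82 and 0.97, and in Top1 cKO-Topot against Top1 cKO-Veh between -0.71 and 0.79. In WT-Topot against Top1 cKO-Veh only the interval of Nefh passed -1. In the interaction the intervals ran from -1.31 to 1.11 and 8 of 10 stayed within 1 of 0, those of Tubb3 and Nefh being the exceptions. The median log2 fold change of the 10 genes was -0.08 for WT-Topot, 0.04 for Top1 cKO-Veh and -0.08 for Top1 cKO-Topot, each against the shared WT-Veh libraries, where the 13720 genes that averaged 1 CPM or more had medians of 0.03, -0.00 and 0.02. The median absolute log2 fold change was 0.23, 0.27 and 0.29 for the members and 0.32, 0.28 and 0.35 for those genes. Together the 10 genes took 0.705 to 0.830% of the counts of WT-Veh libraries, 0.767 to 0.796% in WT-Topot, 0.811 to 0.847% in Top1 cKO-Veh and 0.765 to 0.801% in Top1 cKO-Topot. The WT-Veh range overlapped each of the others, whereas every Top1 cKO-Veh library was above every library of the 2 Topot groups.

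**Figure D1:**
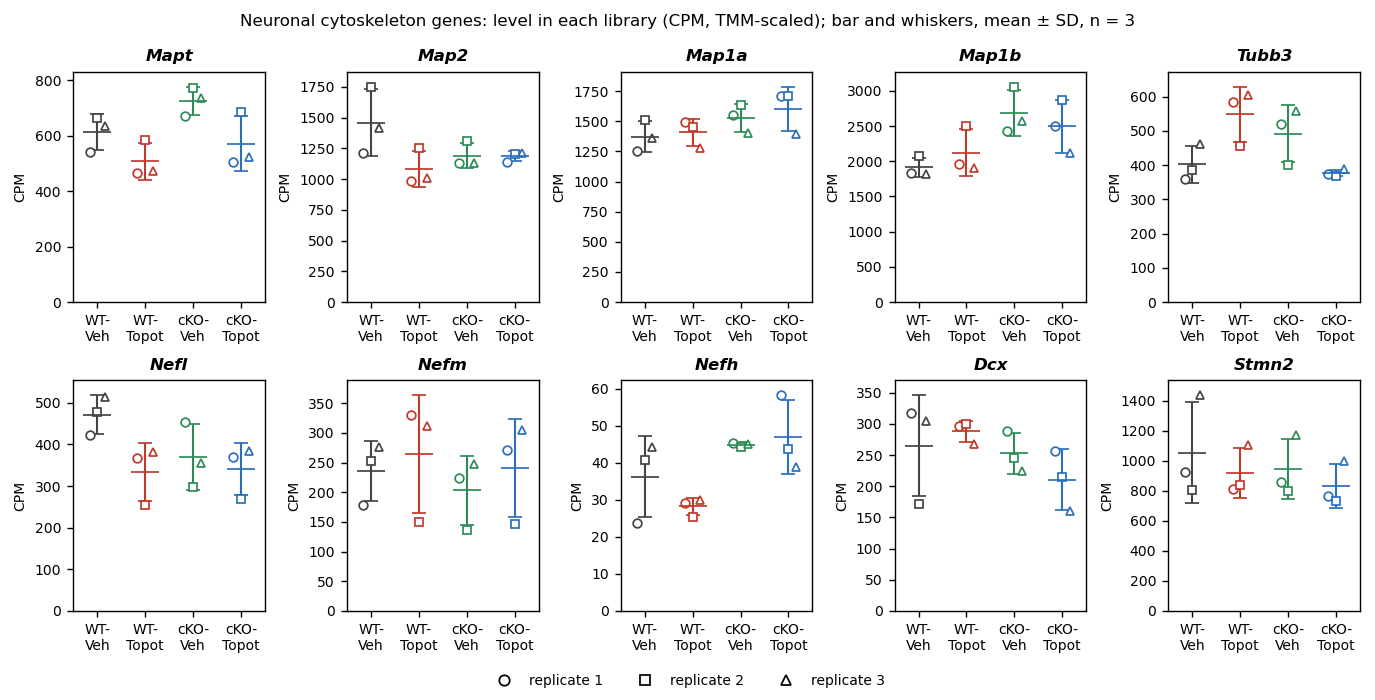
Level of each of the 10 genes in each library, in CPM on a linear axis from 0, by group. Circles, squares and triangles are replicates 1, 2 and 3, and the bar with whiskers is the mean ± SD of 3 libraries. The groups of most genes overlap, and libraries with the same replicate number often sit at the same height within their group, as for Stmn2, where replicate 3 is the highest in all 4 groups.

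Libraries with the same replicate number deviated together, so the numbers were taken to pair the libraries, and a block for the number was added to each comparison in a further fit. Stmn2 and Tubb3 of replicate 3 were above their group mean in all 4 groups, and Mapt, Map2, Map1a and Map1b of replicate 2 were above theirs in all 4 groups. The block lowered the SE of the members' log2 fold changes in WT-Topot against WT-Veh from 0.15 to 0.26 without it to 0.08 to 0.21 with it. The counts with the block were higher, and their backgrounds are shares of all 23893 genes, of which 5182 had no count. In WT-Topot against WT-Veh 3 of 10 members passed (background 8.25%), 1 in Top1 cKO-Veh against WT-Veh (background 5.56%), 2 in Top1 cKO-Topot against WT-Veh (background 7.37%), 2 in Top1 cKO-Topot against Top1 cKO-Veh (background 2.59%), 3 in WT-Topot against Top1 cKO-Veh (background 7.73%) and 1 in the interaction (background 3.97%). The blocked fits borrow their spread across genes to a large degree, with a median prior of 114 degrees of freedom in WT-Topot against WT-Veh beside 15.3 without the block, and 9.34 once weakly expressed genes were left out with filterByExpr. In Top1 cKO-Veh against WT-Veh the blocked prior had no finite value, and in Top1 cKO-Topot against Top1 cKO-Veh, where Mapt and Tubb3 passed in this fit alone, it was 363, beside 11.5 and 10.6 on filtered genes. The members were therefore also tested with the block in edgeR on filtered genes, in DESeq2 and in limma-voom, all chosen after the data were seen. Of the 12 calls made with the block, 5 held in all 4 of these blocked fits: Map2 in WT-Topot against WT-Veh, Map1b in Top1 cKO-Veh against WT-Veh, Mapt and Map1b in WT-Topot against Top1 cKO-Veh, and Tubb3 in the interaction. In WT-Topot against WT-Veh, blocked edgeR on filtered genes called 1 member beside 1384 of 11712 genes. Blocked DESeq2 called 2 beside 1120 of 11801, and limma-voom 1 beside 1419 of 11712. In WT-Topot against Top1 cKO-Veh the same fits called 3, 2 and 3 members, beside 1499 of 11804, 1003 of 11461 and 1599 of 11804 genes.

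**Figure D2:**
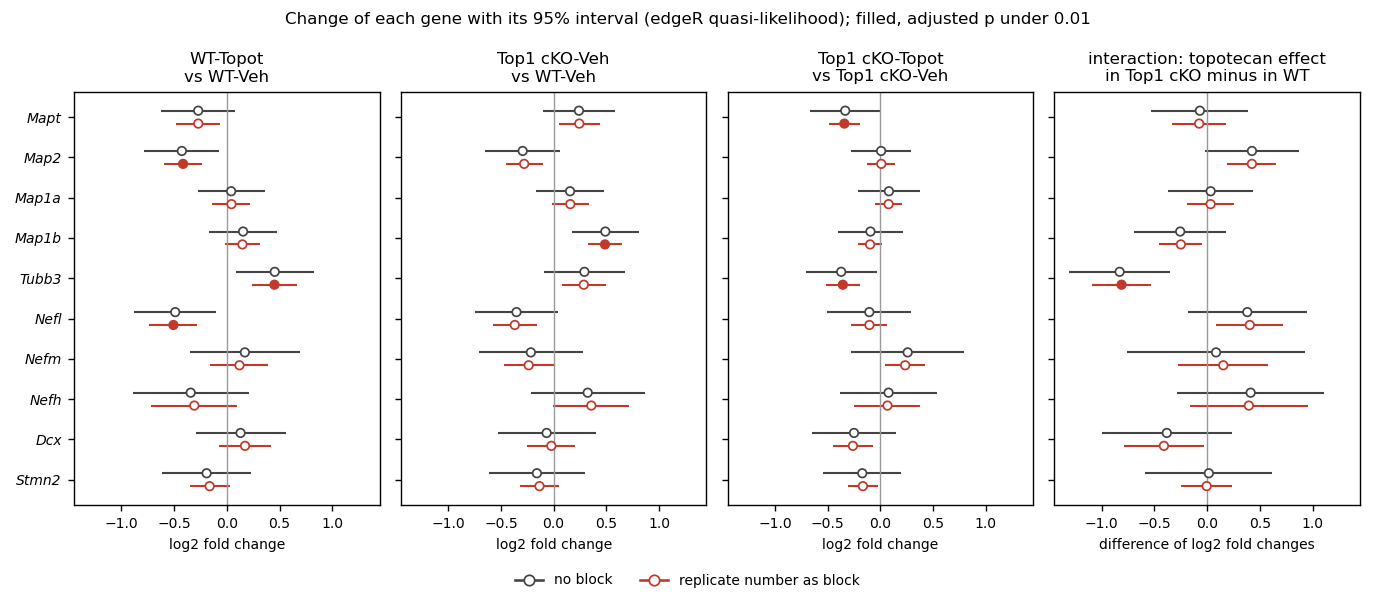
Log2 fold change of each gene with its 95% interval in 3 comparisons, and the interaction, from edgeR's quasi-likelihood test. Grey points are from the fit without a block and red points from the fit that blocks on the number. Filled points have an adjusted p under 0.01: none of the grey points, and among the red points Map2, Tubb3 and Nefl under topotecan in WT, Map1b under deletion, Mapt and Tubb3 under topotecan in Top1 cKO, and Tubb3 in the interaction.

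Map2, the dendritic microtubule-associated protein gene, stood at 1208, 1751 and 1416 CPM in WT-Veh, 986, 1251 and 1009.8 CPM in WT-Topot, 1131, 1306 and 1132 CPM in Top1 cKO-Veh, and 1141, 1207 and 1211 CPM in Top1 cKO-Topot. The highest library was WT-Veh replicate 2, and the lowest WT-Veh library lay below the highest WT-Topot library, so the groups overlapped. The log2 fold change in WT-Topot against WT-Veh was -0.43 ± 0.17 (SE, n = 3 libraries a group, 95% interval -0.78 to -0.07), with an adjusted p of 0.232 by edgeR. With the replicate block it was -0.42 ± 0.09, with adjusted p of 0.000279 by edgeR and 0.000279 to 0.00515 over the 4 blocked fits, and each of the 3 same-number differences was negative, at -0.29, -0.48 and -0.49. Top1 cKO-Veh against WT-Veh gave -0.29 ± 0.17 (adjusted p = 0.727, edgeR), again negative in all 3 numbers, and with the block the adjusted p was 0.0257. In Top1 cKO cultures topotecan gave 0.01 ± 0.14, an interval of -0.28 to 0.29 that holds no drop as large as the WT estimate. The difference between these topotecan effects was 0.42 ± 0.21 (adjusted p = 0.651, and 0.0142 with the block), which did not pass.

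Map1b, the gene of the microtubule-associated protein of growing axons, stood at 1839, 2073 and 1826 CPM in WT-Veh, 1957, 2506 and 1905 CPM in WT-Topot, 2431, 3059 and 2573 CPM in Top1 cKO-Veh, and 2506, 2869 and 2121 CPM in Top1 cKO-Topot. All 3 Top1 cKO-Veh libraries, at 2431 CPM or above, were higher than all 3 WT-Veh libraries, at 2073 CPM or below. Top1 cKO-Veh against WT-Veh gave a log2 fold change of 0.49 ± 0.15 (adjusted p = 0.204, edgeR), and with the block 0.49 ± 0.08 (adjusted p = 3.63e-07, and 3.63e-07 to 0.0037 over the 4 blocked fits). The Top1 cKO-Topot libraries were also all above WT-Veh, at 0.41 ± 0.15 (adjusted p = 0.192), and with the block the adjusted p was 0.000805 by edgeR and up to 0.0218 in the other blocked fits. WT-Topot, at 0.15 ± 0.15 against WT-Veh (adjusted p = 0.879), was not called with or without the block. Set directly against Top1 cKO-Veh, WT-Topot was lower in each same-number difference, at -0.31, -0.29 and -0.43, with -0.34 ± 0.15 (adjusted p = 0.327, and 8.27e-05 with the block).

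Mapt, the gene of tau, stood at 542, 666 and 636 CPM in WT-Veh, 466, 584 and 472 CPM in WT-Topot, 670.3, 771 and 736 CPM in Top1 cKO-Veh, and 506, 686 and 522 CPM in Top1 cKO-Topot. Levels were lower with topotecan than with vehicle at every replicate number in both genotypes, with log2 differences of -0.22, -0.19 and -0.43 in WT and -0.40, -0.17 and -0.49 in Top1 cKO. The fits gave -0.27 ± 0.17 in WT (adjusted p = 0.599, and 0.0807 with the block) and -0.33 ± 0.16 in Top1 cKO (adjusted p = 1, and 0.000691 with the block, where the other blocked fits gave up to 0.0361). The difference of the effects was -0.07 ± 0.22, with an interval of -0.53 to 0.39. Top1 cKO-Veh libraries all lay above WT-Veh, at 0.24 ± 0.16 (adjusted p = 0.841), which the block did not bring past the threshold. WT-Topot against Top1 cKO-Veh, where no library overlapped, gave -0.52 ± 0.15 (adjusted p = 0.0758, and 8.06e-06 with the block, 8.06e-06 to 0.000456 over the 4 blocked fits).

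Map1a, whose product replaces Map1b as neurons mature, stood at 1251, 1509 and 1357 CPM in WT-Veh, 1491, 1451 and 1280.5 CPM in WT-Topot, 1554, 1633 and 1399.9 CPM in Top1 cKO-Veh, and 1710.0, 1709 and 1395 CPM in Top1 cKO-Topot. Its mean was lowest in WT-Veh, at 1373 ± 130.0 CPM (SD, n = 3), and highest in Top1 cKO-Topot, at 1605 ± 182 CPM. On the log2 scale its difference was 0.16 ± 0.15 for Top1 cKO-Veh, 0.04 ± 0.15 for WT-Topot and 0.25 ± 0.16 for Top1 cKO-Topot against WT-Veh, with adjusted p of 0.593 to 1 by edgeR and no call with the block. Map1a shares 272 exonic bases with Ppip5k1 on the opposite strand, and whether the counting used strand is not given in the sources used here.

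Tubb3, the neuronal beta-tubulin gene, stood at 359, 386 and 462 CPM in WT-Veh, 583, 456 and 606 CPM in WT-Topot, 520.1, 399.6 and 557 CPM in Top1 cKO-Veh, and 376, 368 and 388 CPM in Top1 cKO-Topot. In WT, the topotecan library was above the vehicle library at every replicate number, with log2 differences of 0.70, 0.24 and 0.39, and in Top1 cKO it was below at every number, with -0.47, -0.12 and -0.52. All 3 Top1 cKO-Topot libraries lay below all 3 Top1 cKO-Veh libraries, whereas the WT-Veh and WT-Topot libraries overlapped. The log2 fold change was 0.45 ± 0.18 in WT (adjusted p = 0.211, and 0.00112 with the block, 0.00112 to 0.0212 over the 4 blocked fits) and -0.37 ± 0.16 in Top1 cKO (adjusted p = 1, and 0.00133 with the block, 0.00133 to 0.0658 over the 4). The interaction was -0.83 ± 0.23 (95% interval -1.31 to -0.35), with an adjusted p of 0.0936 by edgeR, and -0.81 ± 0.14 with the block, with an adjusted p of 4.53e-05 and 4.53e-05 to 0.00249 over the 4 blocked fits. Of the 10 genes it was the only one with an unadjusted p under 0.05 in the interaction without the block. Top1 cKO-Topot against WT-Veh gave -0.07 ± 0.17, so the group with both treatments stood near the untreated level.

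**Figure D3:**
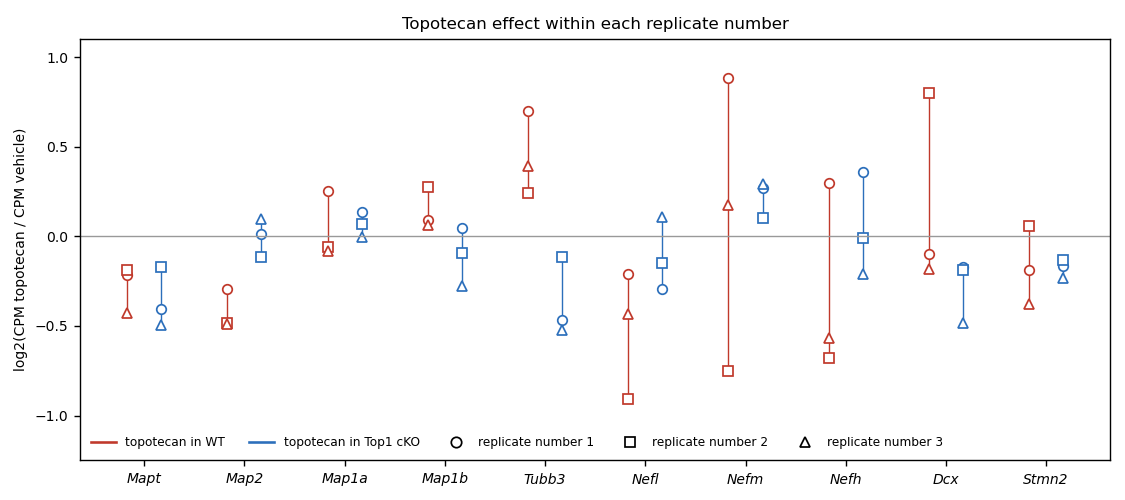
Log2 ratio of the topotecan library to the vehicle library of the same replicate number, in WT (red) and Top1 cKO (blue). Tubb3 lies above 0 for all 3 numbers in WT and below 0 for all 3 in Top1 cKO, Map2 lies below 0 for all 3 in WT and on both sides of 0 in Top1 cKO, and Mapt lies below 0 for all 6.

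Nefl, the neurofilament light chain gene, stood at 424, 477 and 515 CPM in WT-Veh, 367, 255 and 382 CPM in WT-Topot, 454, 297 and 356 CPM in Top1 cKO-Veh, and 370.4, 268 and 383 CPM in Top1 cKO-Topot. All 3 WT-Topot and all 3 Top1 cKO-Topot libraries lay below all 3 WT-Veh libraries, and Top1 cKO-Veh replicate 1 lay within the WT-Veh range. The log2 estimate for WT-Topot was -0.49 ± 0.19 (adjusted p = 0.193), beside -0.35 ± 0.19 in Top1 cKO-Veh (adjusted p = 0.668) and -0.45 ± 0.18 in Top1 cKO-Topot (adjusted p = 0.237), each by edgeR against the same WT-Veh libraries. With the block the adjusted p was 0.000418, 0.0103 and 0.00703, and over the 4 blocked fits it reached 0.016, 0.147 and 0.0329. Replicate 2 had the widest difference in WT-Topot against WT-Veh, at -0.91, beside -0.21 and -0.43 for replicates 1 and 3. Within Top1 cKO cultures topotecan gave -0.11 ± 0.19 with an interval of -0.50 to 0.29.

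Nefm, the medium chain gene, stood at 179, 253 and 276 CPM in WT-Veh, 329.8, 150.3 and 313 CPM in WT-Topot, 224, 137 and 249 CPM in Top1 cKO-Veh, and 271, 147 and 305 CPM in Top1 cKO-Topot. Replicate 2 was the lowest library in 3 of the groups and replicate 1 in WT-Veh. Topotecan in WT gave same-number differences of both signs, 0.88, -0.75 and 0.18, and a log2 fold change of 0.17 ± 0.25 with an interval of -0.35 to 0.69, so the spread between libraries was too wide to resolve a difference. The Nefl and Nefm genes lie side by side on chromosome 14, and in GENCODE vM1 an annotated Nefm transcript crosses Nefl on the opposite strand and shares 1108 exonic bases with it. The Nefm model used here for span and length leaves that transcript out and shares 0 bases with Nefl, and whether the counting included it was not tested.

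Nefh, the heavy chain gene, was the least abundant member and stood at 23.7, 40.8 and 44.3 CPM in WT-Veh, 29.2, 25.5 and 30.0 CPM in WT-Topot, 45.4, 44.2 and 45.1 CPM in Top1 cKO-Veh, and 58.2, 43.8 and 38.9 CPM in Top1 cKO-Topot. The 3 Top1 cKO-Veh libraries lay between 44.2 and 45.4 CPM, and the WT-Veh libraries spread over 23.7 to 44.3 CPM. WT-Topot libraries were all below Top1 cKO-Veh, at a log2 fold change of -0.67 ± 0.21 (adjusted p = 0.106, and 0.00521 with the block, 0.00521 to 0.0851 over the 4 blocked fits). Against WT-Veh, Nefh was at 0.32 ± 0.26 in Top1 cKO-Veh and -0.34 ± 0.26 in WT-Topot, and neither was called with or without the block.

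Dcx, the gene of doublecortin, stood at 318, 172 and 305 CPM in WT-Veh, 297, 299 and 268 CPM in WT-Topot, 289, 245 and 224 CPM in Top1 cKO-Veh, and 257, 215 and 160.0 CPM in Top1 cKO-Topot. WT-Veh replicate 2 was far below the other WT-Veh libraries, and the SD of WT-Veh, 80.8 CPM, was the widest of the 4 groups. On the log2 scale the difference was -0.07 ± 0.22 for Top1 cKO-Veh, 0.13 ± 0.20 for WT-Topot and -0.30 ± 0.22 for Top1 cKO-Topot against WT-Veh, with adjusted p of 0.700 to 1 by edgeR without the block. In Top1 cKO cultures topotecan gave a negative difference at every number, -0.17, -0.19 and -0.49, with an adjusted p of 0.119 with the block.

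Stmn2, the gene of stathmin-2, stood at 922, 805 and 1434 CPM in WT-Veh, 809, 838 and 1106 CPM in WT-Topot, 857, 799.9 and 1173 CPM in Top1 cKO-Veh, and 764, 729.9 and 998 CPM in Top1 cKO-Topot. Replicate 3 was the highest library in every group, and the gap between replicates within WT-Veh, 805 to 1434 CPM, was wider than the gap between any group means, which ran from 831 ± 146 CPM in Top1 cKO-Topot to 1054 ± 335 CPM in WT-Veh (SD, n = 3). Topotecan gave -0.19 ± 0.20 in WT and -0.17 ± 0.17 in Top1 cKO, and neither was called with the block (adjusted p = 0.395 and 0.25, edgeR).

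Counted by groups that do not overlap, which uses no model, 1 member was apart in WT-Topot against WT-Veh (Nefl, beside 26% of genes that averaged 1 CPM or more), 2 in Top1 cKO-Veh against WT-Veh (Mapt and Map1b, beside 19.9%), 2 in Top1 cKO-Topot against WT-Veh (Nefl and Map1b, beside 26.5%), 1 in Top1 cKO-Topot against Top1 cKO-Veh (Tubb3, beside 11.7%) and 2 in WT-Topot against Top1 cKO-Veh (Mapt and Nefh, beside 24.5%). These counts are near or below the background.

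Per kilobase of exon, the level of the members in WT-Veh spanned from 553 ± 176 CPM per kb (SD, n = 3) for Stmn2 to 9.08 ± 2.76 CPM per kb for Nefh. Tubb3 followed at 215 ± 28.8, Map1b at 158 ± 11.5, Nefl at 139.6 ± 13.6, Map2 at 134 ± 25.1, Map1a at 115 ± 10.9, Mapt at 95.5 ± 10.1, Nefm at 70.8 ± 15.2 and Dcx at 28.6 ± 8.74 CPM per kb. The libraries of neighbours in this order were apart except between Map1b and Nefl, Nefl and Map2, and Map2 and Map1a. On this scale Dcx, the gene of immature neurons, was below all members but Nefh.

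Ratios of 2 members within a library do not depend on the scaling of the library, and are given as descriptions with no test. The ratio of Map2 to Map1b counts was 0.657, 0.844 and 0.775 in WT-Veh replicates 1 to 3, then 0.504, 0.499 and 0.530 in WT-Topot, 0.455, 0.421 and 0.571 in Top1 cKO-Topot, and 0.465, 0.427 and 0.440 in Top1 cKO-Veh. Every WT-Veh library was above every library of the other 3 groups, and these groups share the WT-Veh libraries as their reference. The ratio of Map2 to Mapt was 2.22 to 2.63 in WT-Veh, 2.11 to 2.14 in WT-Topot, 1.54 to 1.69 in Top1 cKO-Veh and 1.76 to 2.32 in Top1 cKO-Topot, so that Top1 cKO-Veh was below each of the others. The ratio of Tubb3 to Map2 was 0.220 to 0.327 in WT-Veh, 0.365 to 0.60 in WT-Topot, 0.306 to 0.492 in Top1 cKO-Veh and 0.305 to 0.329 in Top1 cKO-Topot, and WT-Topot was apart from WT-Veh and from Top1 cKO-Topot. The ratio of Nefm to Nefl was 0.423 to 0.537 in WT-Veh and 0.590 to 0.899 in WT-Topot, 0.461 to 0.698 in Top1 cKO-Veh and 0.548 to 0.795 in Top1 cKO-Topot. Other ratios were also formed. Those of Dcx and Stmn2 to Map2, 0.098 to 0.263 and 0.460 to 1.013 in WT-Veh, overlapped every other group. Nefh to Nefl, 0.056 to 0.086 in WT-Veh, overlapped WT-Topot only. Map1a to Map1b, 0.680 to 0.744 in WT-Veh, was apart from Top1 cKO-Veh only. How often other pairs of genes are apart in this way was not tested.

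**Figure D4:**
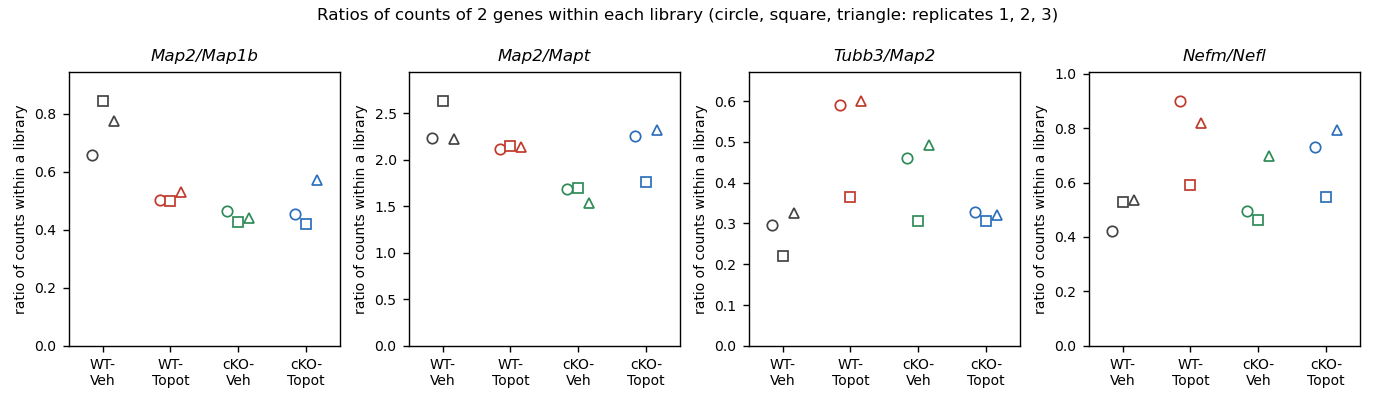
Ratios of the counts of 2 members within each library, on linear axes from 0, by group. The Map2 to Map1b ratio of the 3 WT-Veh libraries, 0.657 to 0.844, is above all 9 other libraries, whose highest is 0.571.

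Other cytoskeletal genes were read from lists, as counts beside the medians. The calls given first are from the fit without the block, and those with the block follow them. In WT-Topot against WT-Veh, no gene of 15 tubulins was called, and the 4 most abundant, Tuba1a, Tubb5, Tubb4a and Tubb2a, had log2 fold changes of 0.07 to 0.34. Of 23 other microtubule-associated protein genes none was called, with a median of -0.06. The list of 15 axonal scaffold genes had 2 lower and 1 higher. Ank2 and Ank3, which encode the ankyrins that tie membrane proteins to spectrin along the axon and at its initial segment, fell by 1.5 ± 0.20 and 1.95 ± 0.23 on the log2 scale (adjusted p = 6.36e-05 and 1.19e-05, edgeR), and Ina, the gene of alpha-internexin, rose by 0.84 ± 0.17 (adjusted p = 0.00433). Ina stood at 178 to 223 CPM in WT-Veh and at 335 to 380.4 CPM in WT-Topot, and it is a partner of the neurofilament chains. Of 16 motor genes Kif5c fell by 0.76 ± 0.17 (adjusted p = 0.00896), and of 11 tau and MAP kinases Ttbk1, the tau tubulin kinase, fell by 0.83 ± 0.18 (adjusted p = 0.00782). None of 15 growth cone and actin genes, led by Tmsb4x, Gap43, Basp1 and Actb, was called, and their median was 0.19. Other abundant genes of these lists, Dclk1, Map4, Mapre2, Sptbn1, Sptan1, Add2, Kif5a, Kif1a, Kif1b, Cdk5r2, Cdk5r1, Gsk3b and Ttbk2, were not called in this comparison without the block. The calls of Ank2 and Ank3 held in every alternative run. Those of Ina, Kif5c and Ttbk1 were lost without WT-Veh replicate 2, WT-Topot replicate 1 or WT-Topot replicate 3, that of Kif5c also with filterByExpr, and that of Ttbk1 also without WT-Topot replicate 2 and on library size alone, with adjusted p of up to 0.0202, 0.0417 and 0.0334.

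Of the 11 neuronal markers outside the cytoskeleton, Rbfox3, the gene of NeuN, fell by 0.96 ± 0.18 in WT-Topot (adjusted p = 0.00209, edgeR), from 142 to 170.5 CPM in WT-Veh to 78.4 to 81.6 CPM, and the list median was 0.26. None of the 11 was negative in Top1 cKO-Veh or Top1 cKO-Topot against WT-Veh, with list medians of 0.30 and 0.35. Without the block none was called in these 2 comparisons. With it edgeR called 4 and 5 of them higher and none lower, beside 5.56% and 7.37% of all genes. Of 8 axon injury genes, led by Jun, Sox11 and Ddit3, none was called without the block in WT-Topot or Top1 cKO-Veh against WT-Veh. In the same WT-Topot libraries Gfap, the astrocyte intermediate filament gene, fell by 2.54 ± 0.37 (adjusted p = 0.000174), the astrocyte glutamate transporter genes Slc1a2 and Slc1a3 fell by 1.39 and 1.52 (adjusted p = 0.000185 and 0.00106), and Nes, the gene of nestin, a filament of progenitors, rose by 1.22 ± 0.22 (adjusted p = 0.00167). Of the 9 astrocyte markers, 3 were called lower and none higher, and 6 were negative, with a list median of -1.39. Aldoc, Sox9 and S100b were at log2 fold changes of 0.09, 0.13 and 0.00. The call of Slc1a3 was lost with filterByExpr and in the fit on all 12 libraries (adjusted p up to 0.0165). Without the block, no gene of the microglia, oligodendrocyte, vascular or proliferation lists was called in any comparison. The part of these astrocyte differences in the members' values was not tested.

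In Top1 cKO-Veh against WT-Veh, Tppp, whose product promotes microtubule assembly, was the single list gene called without the block, at 1.14 ± 0.18 (adjusted p = 0.00839, edgeR). This call was lost with filterByExpr, in the fit on all 12 libraries, and without WT-Veh replicate 1, WT-Veh replicate 2 or Top1 cKO-Veh replicate 2, with adjusted p of up to 0.0404. In Top1 cKO-Topot against WT-Veh, Tppp rose by 0.99 ± 0.21, Nes by 1.77 ± 0.27, and Dclk1, a doublecortin-like kinase gene, fell by 1.1 ± 0.17, Ank2 by 1.06 ± 0.18, Dpysl3, a growth cone gene, by 1.02 ± 0.21, and Ecel1 by 1.75 ± 0.33, with adjusted p of 0.000363 to 0.00774. Those of Dclk1 and Ank2 held in every alternative run, while the others were lost with filterByExpr and without Top1 cKO-Topot replicate 2. Dpysl3 was also lost without WT-Veh replicate 1 or Top1 cKO-Topot replicate 1, Ecel1 and Tppp without WT-Veh replicate 2 and in the fit on all 12 libraries, and the adjusted p reached 0.106 for Tppp. Ecel1 belongs to the axon injury list, whose genes are known to rise after injury. No list gene was called without the block in Top1 cKO-Topot against Top1 cKO-Veh, where 2 of 23893 genes were called at all. In WT-Topot against Top1 cKO-Veh, Ank3, the dynein subunit gene Dync1i1, Rbfox3, Snap25, Gfap, Slc1a2 and Slc1a3 fell, by 0.97 to 2.57, with adjusted p of 9.32e-05 to 0.00502. Of these Slc1a2 alone held in every alternative run, and the largest adjusted p of the others was 0.0142 for Rbfox3, lost without Top1 cKO-Veh replicate 2, 0.0177 for Gfap, lost with filterByExpr, and 0.0212 to 0.0315 for Ank3, Dync1i1, Snap25 and Slc1a3. Ank3 and Dync1i1 were lost without WT-Topot replicate 1, WT-Topot replicate 3 or Top1 cKO-Veh replicate 2, Snap25 without WT-Topot replicate 1 and Slc1a3 without WT-Topot replicate 3, and all but Dync1i1 of these 4 also with filterByExpr. Snap25 and Slc1a3 were lost in the fit on all 12 libraries too, Snap25 on library size alone and Slc1a3 in DESeq2's Wald test. The interaction called Ank3, at 1.81 ± 0.31 (adjusted p = 0.00388), and Mark1, whose kinase phosphorylates tau and Map2, at 1.32 ± 0.24 (adjusted p = 0.00664). Without WT-Topot replicate 1 or WT-Topot replicate 3 both calls were lost, and that of Mark1 also without WT-Veh replicate 2 or any 1 of the 6 Top1 cKO libraries, with adjusted p of up to 0.0127 and 0.0244. Of the 15 listed tubulins none was called in the interaction without the block. Their median there was -0.32 and 10 were negative, beside -0.03 and 52.0% for the 13720 genes that averaged 1 CPM or more. Tuba1a, Tubb5, Tubb4a and Tubb2a, the most abundant, were at -0.51 to -0.28 in the interaction.

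With the block, edgeR called many more of the 164 list genes. In WT-Topot against WT-Veh it called 43 (26.2%, beside 8.25% of all genes, of which 5182 had no count), against 10 without the block, and 34 of them were called in all 4 blocked fits. These include the doublecortin-like kinase gene Dclk1 (-0.64), the microtubule-associated protein genes Map9 (-0.67) and Map7d2 (-0.63), the stathmin genes Stmn4 (-0.57) and Stmn1 (0.99), the growth cone genes Gap43 (-0.39) and Marcks (0.69), and the filament gene Vim (1.34), as log2 fold changes with the block, and no tubulin. Of the abundant genes listed above as not called, Sptbn1 (-0.64), Kif1b (-0.52), Gsk3b (-0.59) and Ttbk2 (-0.49) were also among the 34, and Kif5a (0.38) passed in edgeR's blocked fit on unfiltered genes alone. Of the 11 neuronal markers 2 were lower, Rbfox3 (-0.96) and Snap25 (-0.53), and 3 higher, Uchl1 (0.63), Thy1 (0.53) and Nrgn (0.41), and all but Nrgn were called in all 4 fits. The axon injury list had 1 lower, Ddit3, and 2 higher, Jun and Sox11, of which Ddit3 was called in all 4.

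The comparison of Top1 cKO-Veh with WT-Veh had 26 list genes called with the block (15.9%, beside 5.56% of all genes), against 1 without it, and 14 in all 4 blocked fits. Those 14 include Tppp, Dclk1 (-0.80), Map9 (-0.70), Ank2 (-0.73), Ank3 (-0.77), Dpysl3 (-0.91), the neuronal markers Thy1 (0.62) and Nrgn (0.60), Ddit3 (-1.36) and the oligodendrocyte lineage gene Olig1 (1.51). The astrocyte marker Slc1a2 (0.41 to 0.42) was called higher in 3 of the 4 blocked fits, and no other astrocyte marker was called with the block. In Top1 cKO-Topot against WT-Veh the block gave 39 calls (23.8%, beside 7.37%) against 6, of which 26 were common to all 4 fits, among them Olig1 (2.13). Of the 9 astrocyte markers, 4 were lower and none higher there with the block, namely Aqp4 (-1.36), Slc1a3 (-1.07), Gfap and Gja1, while Aldoc (0.21) and S100b (0.89) had positive values and were not called. Of the 8 axon injury genes 3 were lower (Ecel1, Ddit3 and Atf3) and 1 higher (Jun, 0.95), of which Ecel1 (-1.76) and Jun were called in all 4 fits. Within Top1 cKO cultures topotecan gave 20 calls (12.2%, beside 2.59%) against 0, and 5 were in all 4 blocked fits. They are Gfap (-1.43), Slc1a3 (-1.17) and Slc1a2 (-0.61), lower, and Vim (0.95) and Nes (1.28), higher. None of these 5 encodes a microtubule protein, and the tubulin genes Tubb5 and Tubg1, at -0.31 and -0.90, passed in edgeR's blocked fit on unfiltered genes alone. WT-Topot against Top1 cKO-Veh had 39 calls (23.8%, beside 7.73%) against 7, with 31 in all 4 fits, among them the tubulin genes Tubb2b (0.43) and Tubb4b (-0.46), and the interaction 20 (12.2%, beside 3.97%) against 2, with 16 in all 4. Genes called only with the block were named after their values were seen. C1qb of the microglia list, Col1a2 of the vascular list, and Mbp and Olig2 of the oligodendrocyte list each passed in at least 1 comparison with the block but in none in all 4 fits.

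On the mm9 build, with the gene models of GENCODE vM1, the members differ widely in span. Map2 covers 267 kb at chr1:66221847-66489157 and Mapt 101 kb at chr11:104092704-104193404, followed by Map1b with 95.1 kb at chr13:100191419-100286557, Dcx with 77.5 kb at chrX:140290385-140367854 and Stmn2 with 52.1 kb at chr3:8509527-8561604. Map1a covers 21.2 kb at chr2:121115336-121136568, Tubb3 10.6 kb at chr8:125935324-125945915, Nefh 9.31 kb at chr11:4838757-4848067, Nefm 5.56 kb at chr14:68737340-68742903 and Nefl 5.23 kb at chr14:68701920-68707152. Both members over 100 kb were on the negative side in WT-Topot, with log2 fold changes of -0.43 for Map2 and -0.27 for Mapt, and of the other 8 members 3 were negative, with a median of 0.09. Of the 94 cytoskeletal list genes with a gene model, 20 of 22 over 100 kb were negative, with a median of -0.43, and 32 of 72 shorter ones, with a median of 0.08. The called genes Ank2 and Ank3 span 487 and 493 kb and Kif5c 155 kb, whereas Ttbk1 spans 45.2 kb and Ina 10.6 kb. In Top1 cKO-Veh against WT-Veh, 15 of the 22 list genes over 100 kb were negative, with a median of -0.09, and 34 of the 72 shorter ones, with a median of 0.03. The 2 members over 100 kb were of opposite sign there, Map2 at -0.29 and Mapt at 0.24, with a median of -0.03. The other 8 members had a median of 0.04. In Top1 cKO cultures the topotecan effect was negative in 11 of the 22 and 36 of the 72, with medians of -0.01 and 0.00. The members' medians were -0.16 over 100 kb, from Map2 at 0.01 and Mapt at -0.33, and -0.10 below.

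**Figure D5:**
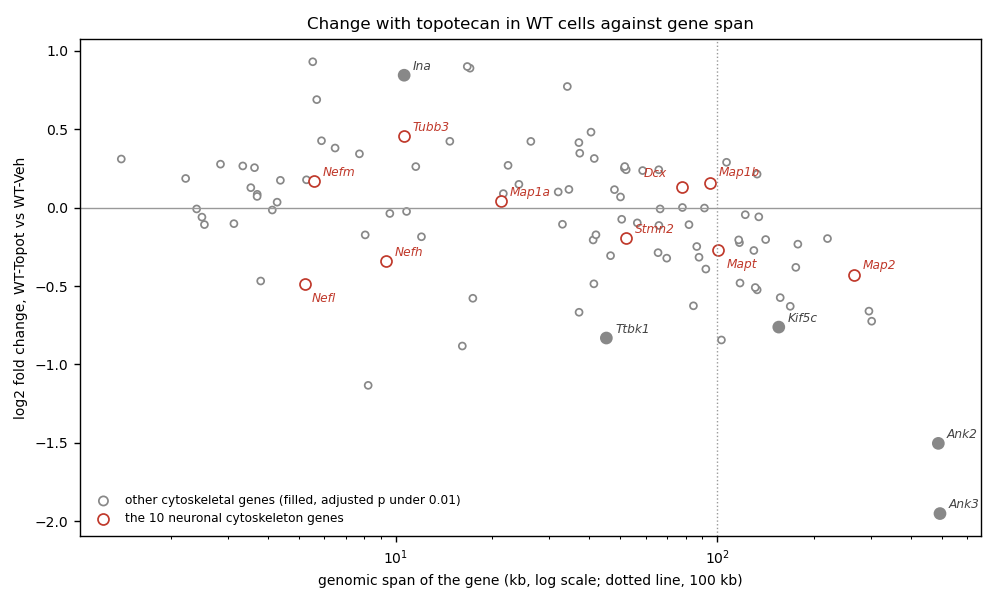
Log2 fold change in WT-Topot against WT-Veh by the genomic span of each gene (log axis), for the 10 members (red) and 94 other cytoskeletal list genes (grey, filled where called), Map4 left out for lack of a gene model. The members lie between -0.49 and 0.45, and the lowest points, Ank2 and Ank3, are the longest genes plotted.

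RefSeq promoter windows of 300 bases, from 250 before to 50 after the start, were given for 5 of the 10 members on build GRCm38.p6, a different build from that of the counts. Of these, 4 are shown. Map2, Map1b and Tubb3 each have a difference that was called in all 4 blocked fits, as does Mapt, for which no window was given, and Map1a is shown as the paralog of Map1b. Capitals mark the GC box GGGCGG, the CCAAT box CCAAT and the TATA box TATAAA, each searched on both strands. In Map1a, 2 of the GC boxes overlap by 1 base.
Map2, chr1:66175079-66175378, plus strand: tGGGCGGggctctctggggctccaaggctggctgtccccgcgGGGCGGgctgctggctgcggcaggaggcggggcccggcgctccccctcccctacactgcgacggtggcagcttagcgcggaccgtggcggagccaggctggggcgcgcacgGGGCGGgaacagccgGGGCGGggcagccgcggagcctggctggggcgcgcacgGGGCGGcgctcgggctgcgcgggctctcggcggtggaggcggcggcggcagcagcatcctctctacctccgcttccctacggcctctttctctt
Map1a, chr2:121289352-121289651, plus strand: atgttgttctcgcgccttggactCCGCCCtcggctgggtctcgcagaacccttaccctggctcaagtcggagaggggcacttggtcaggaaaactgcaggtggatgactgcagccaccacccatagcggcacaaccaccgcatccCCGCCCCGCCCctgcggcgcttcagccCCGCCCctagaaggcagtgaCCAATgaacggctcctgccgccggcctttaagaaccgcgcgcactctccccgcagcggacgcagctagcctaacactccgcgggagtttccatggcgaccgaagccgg
Map1b, chr13:99516553-99516852, minus strand: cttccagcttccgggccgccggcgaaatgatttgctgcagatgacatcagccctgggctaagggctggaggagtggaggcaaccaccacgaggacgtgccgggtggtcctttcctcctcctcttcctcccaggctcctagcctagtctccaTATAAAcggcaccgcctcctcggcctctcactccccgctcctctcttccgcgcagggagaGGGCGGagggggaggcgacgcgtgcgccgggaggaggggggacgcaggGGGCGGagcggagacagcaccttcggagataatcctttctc
Tubb3, chr8:123411303-123411602, plus strand: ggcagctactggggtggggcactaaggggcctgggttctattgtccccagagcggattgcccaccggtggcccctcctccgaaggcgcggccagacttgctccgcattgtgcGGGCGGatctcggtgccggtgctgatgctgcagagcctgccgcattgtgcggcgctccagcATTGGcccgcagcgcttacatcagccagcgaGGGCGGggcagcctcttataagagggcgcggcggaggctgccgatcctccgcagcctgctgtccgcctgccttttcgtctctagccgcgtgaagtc
The Map2 window held 5 GC boxes and 77.7% G and C, the Map1a window 4 and 65.7%, the Map1b window 2 and 65.7%, and the Tubb3 window 2 and 67.3%. Over 32851 RefSeq promoters of the same length, 35.7% held a GC box, 37.4% a CCAAT box and 13.6% a TATA box. A CCAAT box was in the Map1a and Tubb3 windows and a TATA box in the Map1b window, at position -99. Map1b and Map2, whose log2 fold changes were of opposite sign in Top1 cKO-Veh, both held GC boxes, and both Dcx windows held none. Such matches are descriptions of the letters and not of binding.

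The genes whose level over the 12 libraries was most like that of Tubb3, by Pearson's r of log2(CPM + 1) among 9506 genes that averaged 10 CPM or more, were Cmpk2 (0.865), Ttc9b (0.863) and Fxyd7 (0.862). Those most like Map2 were Ube2ql1 (0.95), Rabgap1l (0.935) and Pde4a (0.934), and Arf2 (0.888) and Plekho1 (0.864) were among the 3 most like Nefl. Among the members, r was highest between Map1a and Map1b, at 0.763, and lowest between Map1a and Stmn2, at -0.707. The 12 points share group and replicate number, so these values are descriptions.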

How the data were processed

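RNA-seq was read in 12 libraries of mouse cortical neurons, 3 in each of 4 groups by genotype (WT or Top1 cKO) and treatment (Veh or Topot), taken from the submitters' labels. The authors prepared polyA RNA (RIN over 7), used TagDust to filter reads and TopHat, at its defaults, to place them on mm9, removed rRNA reads and deposited raw counts over RefSeq exons summed by gene symbol. The counting program, its use of strand and the tool versions are not given in the sources used here. Libraries held 1730164 to 4583777 counts, and 5182 of 23893 genes had none.

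The deposited counts were fitted with edgeR 4.0.16 (TMM scaling, quasi-likelihood test, no filter) on the 6 libraries of each comparison, or on all 12 for the interaction, in R 4.3.3, with Benjamini-Hochberg adjustment over all genes and a threshold of 0.01. Alternatives were library size scaling, DESeq2 size factors, filterByExpr, the replicate number as a block, DESeq2 1.42.0, edgeR's exact test, one fit on all libraries, an adjusted p of 0.05 and each library left out. Blocked filterByExpr, DESeq2 and limma-voom (limma 3.58.1) fits were added after the data were seen. Over 13720 genes, deviations from the group means correlated at 0.261 to 0.485 in 18 same-number pairs of libraries and at -0.384 to -0.0494 in 36 others, so numbers were taken to pair libraries. The deviations of a gene cancel within a group, so these ranges are not independent of each other. The labels do not say what a number shares. On simulated counts for WT-Topot against WT-Veh, over 23893 genes, the fit recovered 48 of 100 genes changed by 1 and 98 of 100 changed by 2 on the log2 scale, with 12 false calls.

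The 10 genes and the 14 lists (164 genes) were chosen with earlier results of these data known. Named genes were the members, the called genes of each list (at most the 4 of lowest adjusted p in a comparison), its 4 most abundant genes and, for Tubb3, Map2 and Nefl, the 3 of most like pattern. Of the genes this rule names, 2 are not reported here. Spans and exonic lengths came from GENCODE vM1, and promoters from RefSeq.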

Additional observations from a re-analysis of the deposited data

Results flagged for a closer look

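The topotecan effect differed between Top1 cKO and WT cultures, by a test of the difference itself, for Ank3 and Mark1, and for Tubb3 where the fit had the replicate block. Tubb3 was 1 of many genes of that kind, since the interaction with the block called 3.97% of all genes and 20 of 164 list genes, 16 of these in all 4 blocked fits. For Tubb3 the difference was -0.83 ± 0.23 (SE) on the log2 scale. It did not pass without the replicate block (adjusted p = 0.0936, edgeR) and passed in all 4 fits with it (4.53e-05 to 0.00249), and each of the 3 same-number differences was positive in WT and negative in Top1 cKO. Of the 15 listed tubulins 10 were also negative in the interaction, with a median of -0.32. For Ank3 the difference was 1.81 ± 0.31 (adjusted p = 0.00388, edgeR without the block), and for Mark1 it was 1.32 ± 0.24 (adjusted p = 0.00664). The call of Ank3 was lost without WT-Topot replicate 1 or WT-Topot replicate 3 (adjusted p up to 0.0127), and that of Mark1 without either of these, WT-Veh replicate 2 or any 1 of the Top1 cKO libraries (up to 0.0244). Both were called in all 4 blocked fits.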

How the results depend on the processing

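None of the 10 genes was called under the alternatives run without the replicate block, which were other scalings, a low-count filter, DESeq2, an adjusted p of 0.05 and each library left out in all 6 comparisons, and edgeR's exact test and a fit on all 12 libraries in the 5 comparisons of 2 groups. With the block, members passed as the report gives, and the fits that add filterByExpr, DESeq2 or limma-voom to the block were chosen after seeing the data. In WT-Topot against WT-Veh the members lower numbered 2 in edgeR, 1 with filterByExpr, 2 in DESeq2 and 1 in limma-voom, and 1 was higher in edgeR alone. In Top1 cKO-Veh against WT-Veh 1 was higher in each of the 4 blocked fits. In edgeR's blocked fit alone, 1 was lower and 1 higher in Top1 cKO-Topot against WT-Veh, and 2 were lower in Top1 cKO-Topot against Top1 cKO-Veh. In WT-Topot against Top1 cKO-Veh 3, 3, 2 and 3 were lower, and in the interaction 1 was lower in each of the 4.

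Over all genes, the 651 calls of WT-Topot against WT-Veh became 1085 at an adjusted p of 0.05, 1970 with the replicate block, 1384 with filterByExpr and the replicate block, 1120 with DESeq2 and the replicate block and 1419 with limma-voom and the replicate block, and leaving out 1 library gave 554 to 1027. Over all genes, the 41 calls of Top1 cKO-Veh against WT-Veh became 158 at an adjusted p of 0.05, 3 with filterByExpr, 1328 with the replicate block, 223 with DESeq2's Wald test, 742 with filterByExpr and the replicate block, 512 with DESeq2 and the replicate block, 786 with limma-voom and the replicate block, 159 with edgeR's exact test and 72 in the fit on all 12 libraries, and leaving out 1 library gave 8 to 128. Over all genes, the 402 calls of Top1 cKO-Topot against WT-Veh became 864 at an adjusted p of 0.05, 249 with filterByExpr, 1760 with the replicate block, 619 with DESeq2's Wald test, 1223 with filterByExpr and the replicate block, 921 with DESeq2 and the replicate block and 1234 with limma-voom and the replicate block, and leaving out 1 library gave 230 to 901. Over all genes, the 2 calls of Top1 cKO-Topot against Top1 cKO-Veh became 22 at an adjusted p of 0.05, 0 with filterByExpr, 620 with the replicate block, 53 with DESeq2's Wald test, 153 with filterByExpr and the replicate block, 130 with DESeq2 and the replicate block, 162 with limma-voom and the replicate block, 40 with edgeR's exact test and 7 in the fit on all 12 libraries, and leaving out 1 library gave 1 to 132. Over all genes, the 365 calls of WT-Topot against Top1 cKO-Veh became 800 at an adjusted p of 0.05, 238 with filterByExpr, 1846 with the replicate block, 629 with DESeq2's Wald test, 1499 with filterByExpr and the replicate block, 1003 with DESeq2 and the replicate block, 1599 with limma-voom and the replicate block and 613 with edgeR's exact test, and leaving out 1 library gave 214 to 871. Over all genes, the 104 calls of the interaction became 283 at an adjusted p of 0.05, 64 with filterByExpr, 948 with the replicate block, 357 with DESeq2's Wald test, 689 with filterByExpr and the replicate block, 817 with DESeq2 and the replicate block and 702 with limma-voom and the replicate block, and leaving out 1 library gave 51 to 140. The cause was not tested. These counts set the background rates. Libraries were left out only in fits without the block, which called no member with all libraries, and no member entered the calls. The member calls made with the block were not rerun with a library left out. In the comparison of the Top1 cKO groups the 1 came without Top1 cKO-Topot replicate 2 and the 132 without Top1 cKO-Veh replicate 3.

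Leaving out 1 library turned the sign of members in comparisons where no fit called them. Values crossed 0 in WT-Topot against WT-Veh for Map1a (-0.032 to 0.11), Nefm (-0.022 to 0.45), Dcx (-0.11 to 0.27) and Stmn2 (-0.36 to 0.10). It did so in Top1 cKO-Veh against WT-Veh for Nefm (-0.39 to 0.0025), Dcx (-0.30 to 0.085) and Stmn2 (-0.35 to 0.13). Values crossed 0 in Top1 cKO-Topot against WT-Veh for Tubb3 (-0.15 to 0.039) and Nefm (-0.15 to 0.29). It did so in Top1 cKO-Topot against Top1 cKO-Veh for Map2 (-0.028 to 0.069), Map1b (-0.20 to 0.010), Nefl (-0.25 to 0.074), Nefh (-0.12 to 0.19) and Stmn2 (-0.33 to 0.015). Values crossed 0 in WT-Topot against Top1 cKO-Veh for Nefl (-0.27 to 0.042) and Stmn2 (-0.18 to 0.14). It did so in the interaction for Mapt (-0.22 to 0.044), Map1a (-0.043 to 0.12), Nefm (-0.20 to 0.34) and Stmn2 (-0.27 to 0.20). Library size without TMM turned Stmn2 in WT-Topot against Top1 cKO-Veh to 0.047, and Map1a and Stmn2 in the interaction to -0.035 and -0.049, and it moved the median of all genes in WT-Topot against WT-Veh to 0.11. With the block, Nefm in Top1 cKO-Topot against WT-Veh became -0.014 with filterByExpr, -0.0034 in DESeq2 and -0.0048 in limma-voom, and Stmn2 in the interaction -0.0048. Map2 in Top1 cKO-Topot against Top1 cKO-Veh became -0.0047 in blocked limma-voom and -0.0046 in the fit on all 12 libraries. The part of depth in the members' errors was not tested.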
